A study of Mus musculus with 6 samples.

Results

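The genes described are 10 genes of fatty acid oxidation (Cpt1a, Cpt1b, Cpt2, Acadm, Acadvl, Acadl, Hadha, Hadhb, Pdk4 and Ppargc1a), taken by gene name from the 46983 genes measured. All 10 were found, and all 10 were among the 25903 genes expressed highly enough to be tested. RNA-seq was performed on aortic valves of wild type C57BL/6J mice, taken on postnatal day 2 (PND2) or at an age of 4 months. Each age had 3 libraries, and a library held the pooled valves of 5 to 6 mice, so a value is the average of several animals and a p-value measures the spread between pools. No transgene or treatment was used, and the sex of the mice is not given in the sources used here. The question was how expression of the oxidation genes differed between a valve that is still growing and an adult valve.

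Fatty acids are burned in the mitochondrial matrix, and long chains need a carrier to get there. Carnitine palmitoyltransferases link the fatty acid to carnitine on the outer membrane (Cpt1a and Cpt1b) and release it again inside (Cpt2). Acyl-CoA dehydrogenases specific for chain length (Acadvl, Acadl and Acadm) then begin each round of beta-oxidation, and the trifunctional protein, whose subunits are Hadha and Hadhb, completes it for long chains. Pdk4 is a kinase that switches off pyruvate dehydrogenase and so turns cells from glucose to fat, and Ppargc1a is a transcriptional coactivator of mitochondrial and oxidation genes. The pathway is best known from heart, skeletal muscle, liver and brown fat. Heart muscle turns from glucose towards fatty acids in the days and weeks after birth.

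Promoter windows, running from 250 bases before to 50 bases after each annotated start, were taken from RefSeq (GRCm38.p6, the assembly that mm10 names) and were found for 9 of the 10 genes. The half-site AGGTCA, the recognition sequence shared by many nuclear receptors such as the PPARs, was searched on both strands and stood in 3 of the 9 (Cpt1a, Acadm and Acadvl), against 16.3% of all 32851 promoter windows. The direct repeat AGGTCANAGGTCA, which contains the half-site, was in 0 of the 9 and in 0.0396% of all windows. The element TCAAGGTCA, which also contains the half-site, was in 0 of the 9 and in 0.423% of all windows. A match is a description of the letters and not a site of binding. Of the genes with the half-site, Cpt1a was lower at 4 months, while Acadm and Acadvl did not pass the test. These are shown because they set the same 6 letters beside different results. Capitals mark the half-site, which reads TGACCT where it lies on the other strand, and a negative position counts its leftmost base back from the start. For Cpt1a (chr19:3323051-3323350, plus strand) it is at position -94, and for Acadm (chr3:153944594-153944893, minus strand) at position -249.

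Cpt1a: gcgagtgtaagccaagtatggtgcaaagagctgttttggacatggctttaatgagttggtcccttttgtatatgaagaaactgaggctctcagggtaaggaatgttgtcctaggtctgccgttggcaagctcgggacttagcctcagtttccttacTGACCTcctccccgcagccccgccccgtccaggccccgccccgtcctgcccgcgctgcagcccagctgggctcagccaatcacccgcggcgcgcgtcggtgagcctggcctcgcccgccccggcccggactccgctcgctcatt

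Acadm: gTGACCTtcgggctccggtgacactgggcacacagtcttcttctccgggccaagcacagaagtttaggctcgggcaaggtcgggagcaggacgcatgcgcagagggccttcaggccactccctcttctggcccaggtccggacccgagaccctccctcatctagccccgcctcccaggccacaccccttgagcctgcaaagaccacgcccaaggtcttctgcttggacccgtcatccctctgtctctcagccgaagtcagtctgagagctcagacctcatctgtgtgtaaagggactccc

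Hadha and Hadhb lie head to head, with 85 bases between their annotated starts, and their promoter windows share 228 bases. The Hadha window (chr5:30154931-30155230, minus strand) is shown because one stretch of DNA lies upstream of both genes. Capitals mark the 68 bases of it that lie between the annotated genes.

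Hadha: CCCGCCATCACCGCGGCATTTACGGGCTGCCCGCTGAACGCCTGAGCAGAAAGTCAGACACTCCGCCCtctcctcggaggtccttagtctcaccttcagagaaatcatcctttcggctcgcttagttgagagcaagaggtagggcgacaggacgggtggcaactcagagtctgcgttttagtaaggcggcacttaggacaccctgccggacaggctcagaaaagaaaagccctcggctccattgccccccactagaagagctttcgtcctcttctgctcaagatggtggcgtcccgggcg

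For Ppargc1a the RefSeq window (chr5:51567676-51567975, minus strand) belongs to an upstream first exon. It is shown because that exon had no reads in any library. Capitals mark its first 51 bases.

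Ppargc1a: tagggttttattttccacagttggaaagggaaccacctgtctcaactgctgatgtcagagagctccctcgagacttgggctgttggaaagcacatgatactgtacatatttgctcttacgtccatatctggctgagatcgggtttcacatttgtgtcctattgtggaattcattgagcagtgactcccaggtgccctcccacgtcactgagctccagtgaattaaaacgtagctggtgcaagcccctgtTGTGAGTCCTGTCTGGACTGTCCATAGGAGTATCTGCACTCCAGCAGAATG

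Library totals ran from 23810507 to 38994657, and mitochondrial genes took 5.44 to 9.60% of the reads on genes. Values are RPKM, that is, reads scaled by exonic length and by the library total. Each oxidation gene rested on at least 1221 reads in every library. Markers of valve interstitial cells and fibroblasts were abundant at both ages, with a summed RPKM of 6121 to 6824 at PND2 and 7238 to 9097 at 4 months. Of these 7 markers, however, 4 passed the test as lower and 1 as higher, with a median log2 fold change of -0.56. The 1 that was higher was Dcn, with means of 1054 RPKM at PND2 and 3961 at 4 months. Markers of heart muscle were abundant as well, although the study's methods state that little myocardium was taken. The 12 cardiomyocyte markers summed to 19967, 20858 and 23014 RPKM at PND2 and to 7747, 12779 and 8448 at 4 months. All 12 had a negative log2 fold change and 6 passed the test as lower, with a median of -0.96. The 9 adipocyte markers summed to 152, 69.3 and 84.7 at PND2 and to 379, 1524 and 377 at 4 months. At PND2 most of that sum was Fabp4, and Adipoq, Plin1, Cidec, Lep, Retn, Cfd and Pck1 were at or near 0. At 4 months 8 of the 9 passed the test as higher. Of the 6 brown adipocyte markers 4 were tested, and 2 of them (Dio2 and Cox7a1) passed as higher. Cox7a1 already had a mean of 148 RPKM at PND2. Its call held in 2 of the 6 fits that left out a library, and that of Dio2 in all 6. Of those not tested, Elovl3 was near 0 throughout, and Ucp1, near 0 at PND2, was 0.0814, 3.93 and 17.3 RPKM in the 4-month libraries. Of the skeletal muscle markers, Myod1 was at 0 in 5 of the 6 libraries, and 5 of the 7 markers tested passed as lower. Of these 5, Ckm had a mean of 715 RPKM at PND2, and Mylpf, Tnnt3, Tnni2 and Myh1 had means of 2.02 to 5.38. The calls of Myh1 and Tnnt3 held in 2 and 1 of the 6 fits that left out a library. The 5 smooth muscle markers all passed as higher, the 5 endothelial markers all passed as lower, and 4 of the 5 macrophage markers passed as higher. The part of any of these cell types in the results for the oxidation genes was not tested. In whole tissue, fewer cells of a type and less RNA per cell cannot be told apart.

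Of the 10 oxidation genes, 5 were lower at 4 months than at PND2 (Cpt1a, Cpt1b, Acadl, Hadha and Ppargc1a) and 0 were higher. The falls ran from 1.56-fold for Hadha to 2.57-fold for Ppargc1a. The other 5 (Cpt2, Acadm, Acadvl, Hadhb and Pdk4) did not pass the test. The test was limma on log2(RPKM + 0.1), 2-sided, with p-values adjusted over all 25903 genes by the Benjamini-Hochberg method and a threshold of 0.05. In all genes tested, 21.1% were lower at 4 months, 14.7% were higher and 35.8% passed in either direction. The same 5 genes were those whose 3 values at 4 months all lay below the 3 values at PND2. Among all genes, 29.9% were placed so and 20.0% the other way, which makes 50.0% without overlap. The median log2 fold change was -0.47 over the 10 genes and -0.14 over all genes tested. Without 4 months replicate 1, 2 genes passed as higher (Acadm and Pdk4) and 4 as lower.

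**Figure D1:**
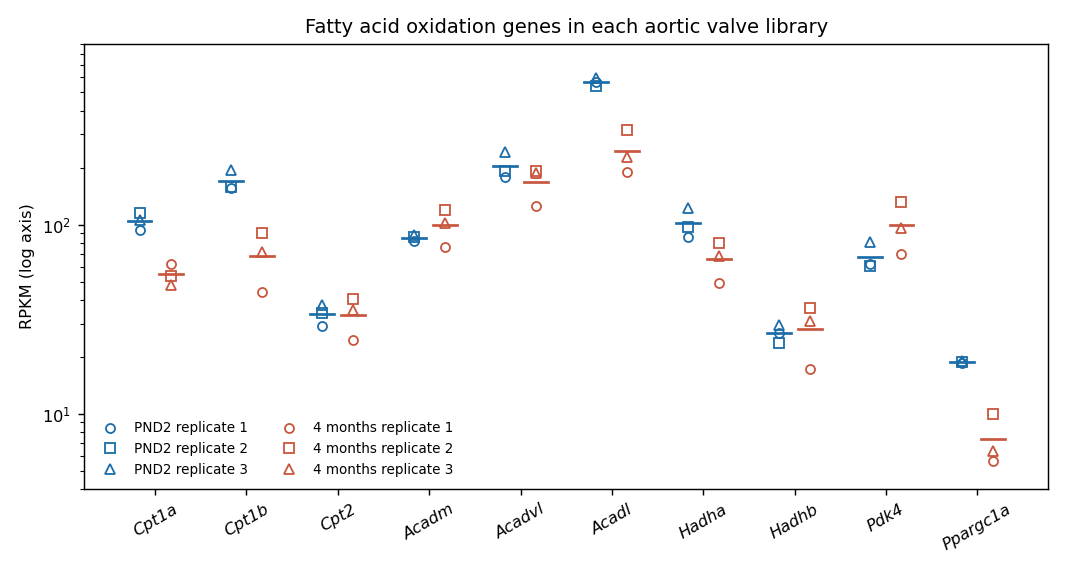
RPKM (log axis) of the 10 fatty acid oxidation genes in each library, PND2 in blue and 4 months in red, with a marker shape for each replicate and a bar at the mean of 3 libraries. The red points of Cpt1a, Cpt1b, Acadl, Hadha and Ppargc1a all lie below the blue ones, and in 9 of the 10 genes the red circle (replicate 1) is lowest and the red square (replicate 2) highest.

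**Figure D2:**
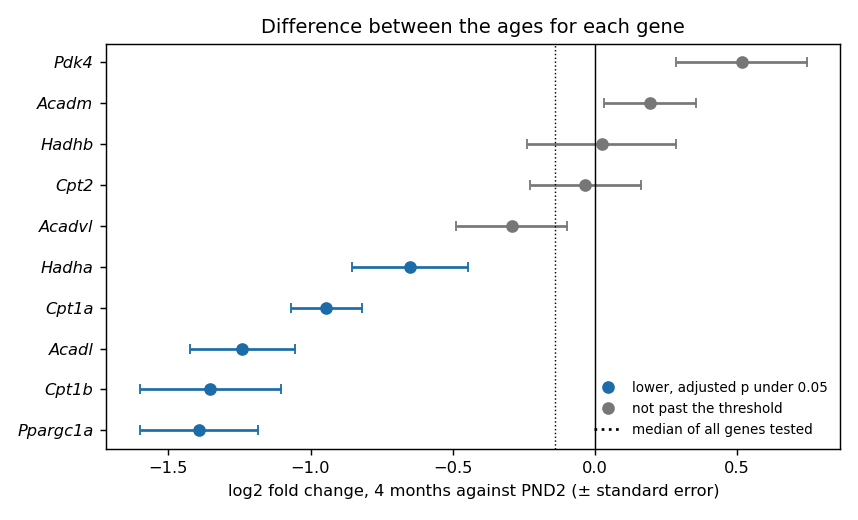
Log2 fold change of 4 months against PND2 with its standard error from limma, for each gene. Blue marks the 5 genes that passed as lower, grey the 5 that did not pass, and the dotted line the median of all genes tested (-0.14).

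Both forms of carnitine palmitoyltransferase 1, the step that commits long chains to the mitochondrion, were lower in the adult valve. Cpt1a (chr19:3323301-3385732) is the form of the liver and many other tissues. Its RPKM was 93.6, 115 and 106 at PND2 and 61.7, 53.8 and 48.0 at 4 months. The ages did not overlap, and the means were 105 ± 10.6 and 54.5 ± 6.91 (SD, n = 3). The log2 fold change was -0.94 with a standard error of 0.12 (limma, adjusted p = 0.00151). Of the 5 genes that passed, Cpt1a alone did so in 17 of 17 alternatives. Of its 19 annotated exons 17 passed as lower and all 19 were negative, beside 14.2% of the 299098 exons tested that passed as lower and 23.1% that passed in either direction. Annotated exons can overlap each other and so are not independent.

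Cpt1b (chr15:89416405-89425863) is the form of heart and skeletal muscle. Its RPKM was 156, 158 and 194 at PND2 and 44.1, 89.8 and 72.0 at 4 months. The ages did not overlap, but the adult libraries spread about a mean of 68.6 ± 23.0 (SD, n = 3), against 169 ± 21.2 at PND2. The log2 fold change was -1.35 with a standard error of 0.25 (limma, adjusted p = 0.00562). It passed whichever library was left out, between -1.58 and -1.06, and did not pass when all genes were tested without a filter (adjusted p = 0.0526) or with a per-gene unequal-variance test (adjusted p = 0.113). Chkb, a choline kinase gene, is annotated on the same strand at chr15:89416405-89429908 and contains all of Cpt1b, so reads may count for both. Exons were compared for that reason. Of the 26 exons of Cpt1b 25 passed as lower, with a median log2 fold change of -1.35. Of the 32 Chkb exons beyond the end of Cpt1b 11 passed as lower, with a median of -0.45.

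Cpt1b made up 62.5, 57.9 and 64.6% of the RPKM of Cpt1a and Cpt1b together at PND2, and 41.7, 62.5 and 60.0% at 4 months. The muscle form was thus the larger share in every library but 4 months replicate 1. The difference of -6.92 percentage points did not pass (exact permutation test, 2-sided, p = 0.6). For this and the 4 other shares and ratios given here, 3 libraries against 3 cannot give a p below 0.1, and the lowest adjusted p over the 5 was 0.167.

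Cpt2 (chr4:107903981-107923610), which hands the fatty acid back to coenzyme A in the matrix, had an RPKM of 29.1, 34.3 and 37.6 at PND2 and 24.5, 40.6 and 35.2 at 4 months. The ages overlapped fully, and the log2 difference of -0.03 had a standard error of 0.20 (limma, adjusted p = 0.916). The sign was positive after median scaling, after quantile normalization, and without 4 months replicate 1 or PND2 replicate 3. None of its 15 exons passed.

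**Figure D3:**
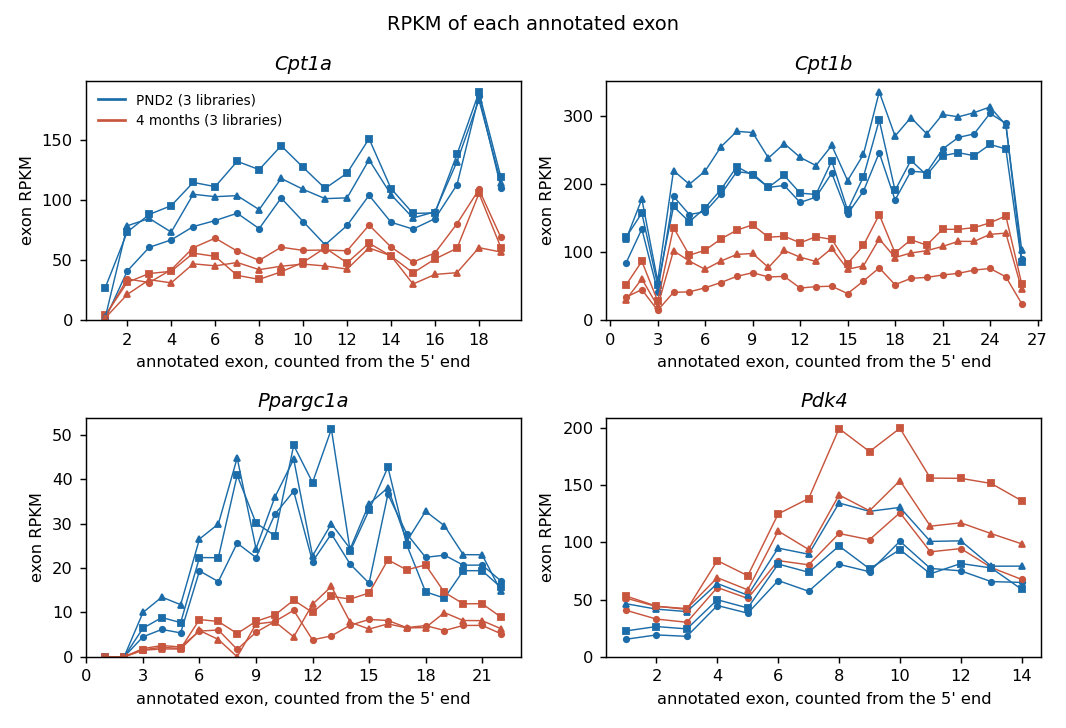
RPKM of each annotated exon of Cpt1a, Cpt1b, Ppargc1a and Pdk4 from the 5' end, in 3 PND2 libraries (blue) and 3 libraries of 4 months (red). The ages separate along nearly the whole of Cpt1a, Cpt1b and Ppargc1a, the upstream exons 1 and 2 of Ppargc1a are at 0 in all libraries, and the ages overlap in Pdk4.

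Of the 3 acyl-CoA dehydrogenases, Acadl passed the test as lower, and Acadm and Acadvl did not pass. Acadl (chr1:66830839-66863277), for long chains, was the most abundant of the 10 genes at both ages. Its RPKM was 566, 539 and 593 at PND2 and 190, 317 and 228 at 4 months. The means were 566 ± 27.1 and 245 ± 65.5 (SD, n = 3), with no overlap. Acadl had a log2 fold change of -1.24 with a standard error of 0.19 (limma, adjusted p = 0.00245), and it passed whichever library was left out. With the per-gene unequal-variance test it did not pass (adjusted p = 0.0954). All 12 exons tested passed as lower, between -1.50 and -1.03, and 1 further annotated exon was too low to test.

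Acadm (chr3:153922357-153944632), for medium chains, had an RPKM of 82.3, 85.5 and 88.5 at PND2 and 76.0, 120 and 102 at 4 months. The adult libraries lay on both sides of the PND2 values, and the log2 fold change of 0.19 with a standard error of 0.16 did not pass (limma, adjusted p = 0.393). Without 4 months replicate 1 it was 0.37 and passed (adjusted p = 0.0462). Of its 31 exons 30 had a positive log2 fold change and 0 passed.

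Acadvl (chr11:70010183-70015411), for very long chains, had an RPKM of 178, 191 and 243 at PND2 and 125, 193 and 187 at 4 months. The ages overlapped, and the log2 fold change of -0.29 with a standard error of 0.20 did not pass (limma, adjusted p = 0.288). All 32 of its exons were negative and 0 passed. The gene overlaps Dvl2 on the other strand, and the sources do not say if reads were counted by strand.

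Within each library, the ratio of Acadl to Acadm takes out any scaling of a library that acts on both genes. It was 6.88, 6.30 and 6.70 at PND2 and 2.50, 2.65 and 2.22 at 4 months. The means were 6.63 ± 0.297 and 2.46 ± 0.217 (SD, n = 3), with no overlap, and the exact permutation p was 0.1, the smallest this design allows (adjusted over the 5 comparisons, 0.167). From the mean RPKM of each gene's tested exons the ratio was 5.04 to 5.48 at PND2 and 1.69 to 2.08 at 4 months. The difference of -4.17 between the means was larger than the spread within either age.

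The subunits of the trifunctional protein are neighbours in the genome, and of them Hadha passed the test as lower and Hadhb did not pass. Hadha (chr5:30118304-30155162), the alpha subunit, had an RPKM of 86.2, 97.3 and 123 at PND2 and 48.8, 79.6 and 68.4 at 4 months. The highest adult value was below the lowest PND2 value, and the log2 fold change was -0.65 with a standard error of 0.20 (limma, adjusted p = 0.0426). This call is the least firm of the 5, since it did not pass in 10 of 17 alternatives, with adjusted p between 0.0244 and 0.184 over all 17. It was lost without 4 months replicate 1 (0.0914) or 3 (0.0879), and without PND2 replicate 2 (0.0840) or 3 (0.131). All 37 exons were negative and 10 passed as lower.

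Hadhb (chr5:30155248-30184593), the beta subunit, had an RPKM of 26.6, 23.5 and 29.6 at PND2 and 17.3, 36.3 and 31.0 at 4 months. The adult libraries spread more widely than the difference between the ages, and the log2 fold change was 0.02 with a standard error of 0.26 (limma, adjusted p = 0.954). Its sign changed with the library left out, and 0 of its 31 tested exons passed. The log2 fold changes of these exons ran from -2.31 to 1.27, with 18 negative and 13 positive. The 4 exons annotated nearest its 3' end stood at a mean of 171 to 200 RPKM at PND2, above every other exon of the gene, of which the highest was at 89.4.

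The ratio of Hadha to Hadhb was 3.24, 4.14 and 4.14 at PND2 and 2.82, 2.19 and 2.20 at 4 months. The ages did not overlap, and the exact permutation p was again 0.1. The level of each subunit depends on which exons are counted. The mean over the PND2 libraries was 102 RPKM for Hadha as a gene and 362 for its median exon, and 26.6 and 40.9 for Hadhb. Long annotated exons with few reads, such as one of 4248 bases in Hadhb at a mean of 1.64 RPKM, enter the length by which the gene value is divided. From the mean RPKM of each gene's tested exons the ratio was 4.37 to 5.35 at PND2 and 2.95 to 3.74 at 4 months. The ages were thus still apart.

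Of the regulators, Ppargc1a was lower and Pdk4 did not pass. Ppargc1a (chr5:51454250-51567726) had an RPKM of 18.5, 18.8 and 19.1 at PND2, the tightest group of values among the 10 genes. At 4 months it was 5.62, 9.96 and 6.40. The means were 18.8 ± 0.286 and 7.33 ± 2.32 (SD, n = 3), and every adult value was below every PND2 value. The log2 fold change was -1.39 with a standard error of 0.21 (limma, adjusted p = 0.00245). It passed whichever library was left out, between -1.63 and -1.23, and did not pass with the per-gene unequal-variance test (adjusted p = 0.102). Of its 20 tested exons 18 passed as lower.

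The upstream first exon of Ppargc1a, to which the promoter window of this gene belongs, had 0 reads in all 6 libraries in both of its annotated forms. For the longer form of 97 bases, 3 reads would be worth 0.793 to 1.30 RPKM, so a level up to that could not be detected in a library. The next exon lies 13.8 kb downstream from 5' end to 5' end and had 153 reads in all. Its mean was 6.98 RPKM at PND2 and 1.63 at 4 months, and it passed as lower (log2 fold change -1.97, limma, adjusted p = 0.0127).

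Pdk4 (chr6:5483351-5496309) had an RPKM of 61.7, 60.4 and 80.6 at PND2 and 69.8, 131 and 96.5 at 4 months. Replicate 1 of 4 months lay within the PND2 range and the other two lay above it. The log2 fold change of 0.52 with a standard error of 0.23 did not pass (limma, adjusted p = 0.123), and without 4 months replicate 1 it was 0.75 and passed (adjusted p = 0.0279). All 14 exons were positive and 0 passed, beside 8.96% of all exons that passed as higher. Among the 4 pyruvate dehydrogenase kinases, Pdk4 held 43.8, 38.2 and 45.9% of the summed RPKM at PND2 and 49.4, 58.1 and 54.6% at 4 months. The ages did not overlap, with means of 42.6 ± 3.97% and 54.0 ± 4.36% (SD, n = 3, exact permutation p = 0.1, adjusted 0.167). Of the other kinases, Pdk1 fell (log2 fold change -0.69, limma adjusted p = 0.0423) and so did Pdk3 (-0.74, limma adjusted p = 0.00532), while Pdk2 did not pass (0.21, limma adjusted p = 0.347).

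Ppargc1b, the paralog of Ppargc1a, was 6.16, 5.33 and 6.43 RPKM at PND2 and 1.81, 3.13 and 2.56 at 4 months. It fell by 1.25 on the log2 scale (limma, adjusted p = 0.0055). Ppargc1a made up 75.9 ± 1.75% of both together at PND2 and 74.4 ± 2.59% at 4 months (SD, n = 3). The shares overlapped (exact permutation p = 0.6), which does not show that the paralogs changed alike. Among the PPARs, the nuclear receptors that bind fatty acids, Ppard was higher (log2 fold change 0.65, limma adjusted p = 0.0145). Ppara (0.22, limma adjusted p = 0.588) and Pparg (1.69, limma adjusted p = 0.0525) did not pass. Pparg, the receptor of fat cells, was 3.00, 12.03 and 3.38 RPKM in the 4-month libraries, and its highest value was in the library with the highest adipocyte markers.

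The adult libraries differed among themselves in a common order. In 9 of the 10 oxidation genes, 4 months replicate 1 was lowest, replicate 3 intermediate and replicate 2 highest, against 13.3% of all genes tested. Cpt1a was the exception, with its highest value in replicate 1. Replicate 2 exceeded replicate 1 by a median of 1.66-fold over the 10 genes, and the ratio ran from 0.871 for Cpt1a to 2.099 for Hadhb. For all genes the median ratio was 0.928. At PND2 the highest library exceeded the lowest by a median of 1.25-fold over the 10 genes, against 1.35-fold for all genes. The genes share libraries, so these counts describe the libraries and are not independent observations.

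The same order was seen in 9 of 12 cardiomyocyte markers, with a median ratio of 2.00, and in 7 of 9 adipocyte markers, with a median of 3.48. It was seen in 15 of 16 citric acid cycle genes (median 1.39), and in the share of reads on mitochondrial genes (6.61, 8.09 and 9.60% in replicates 1, 3 and 2). It was seen in 0 of 5 smooth muscle markers (median 0.616), 0 of 7 valve interstitial and fibroblast markers (median 0.857) and 0 of 5 macrophage markers (median 0.809). Heart muscle, fat and smooth muscle transcripts thus differed between the adult pools as well as between the ages, and the oxidation genes other than Cpt1a were ordered as most heart muscle and fat markers were. Their part in the differences between the ages was not tested.

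**Figure D4:**
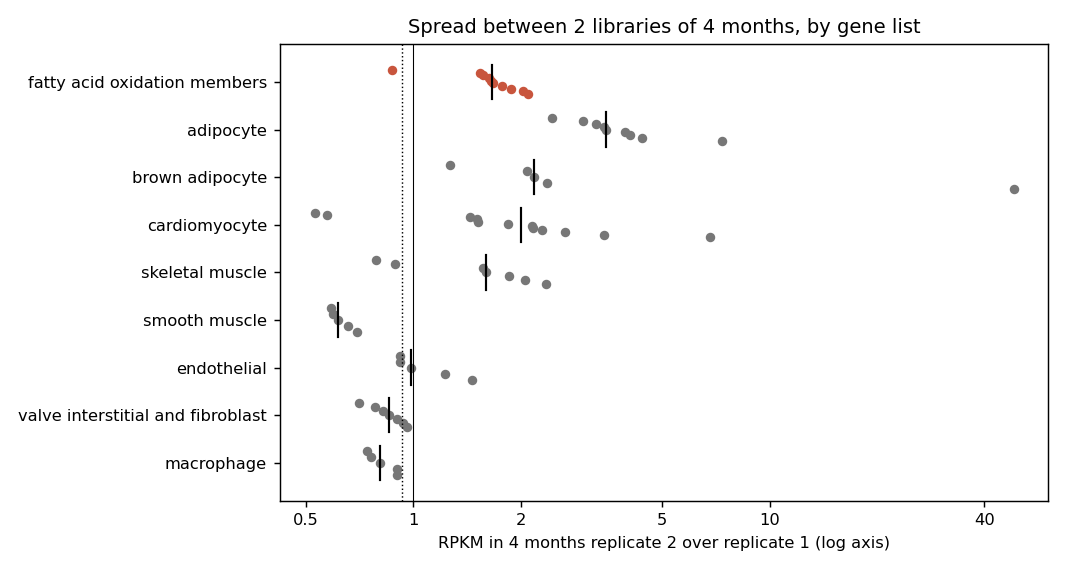
RPKM in 4 months replicate 2 over replicate 1 (log axis) for the 10 oxidation genes (red) and for marker genes of other cell types (grey), 1 point per gene with a value above 0 in both libraries. Black bars are list medians and the dotted line is the median of all genes tested. The oxidation genes other than Cpt1a lie between 1.54 and 2.099, to the right of the smooth muscle markers at 0.589 to 0.696.

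In order of level, which RPKM allows because it is scaled by length, Acadl led at PND2, followed by Acadvl, Cpt1b, Cpt1a, Hadha, Acadm, Pdk4, Cpt2, Hadhb and Ppargc1a. The ranges of Acadvl and Cpt1b, Cpt1a and Hadha, Hadha and Acadm, and Cpt2 and Hadhb overlapped. Within each of the 3 libraries, however, Acadvl was above Cpt1b, Hadha above Acadm and Cpt2 above Hadhb, and Cpt1a and Hadha changed places between libraries. At 4 months the order was Acadl, Acadvl, Acadm, Pdk4, Cpt1b, Hadha, Cpt1a, Cpt2, Hadhb and Ppargc1a. There the neighbours overlapped at every step except from Acadvl to Acadm, from Cpt1a to Cpt2 and from Hadhb to Ppargc1a. Of those that overlapped, Acadm and Pdk4, Cpt1b and Hadha, and Hadha and Cpt1a changed places between libraries, and the others kept their order in all 3. Acadm and Pdk4, which stood below both Cpt1a and Cpt1b at PND2, had means of 99.4 and 99.1 RPKM at 4 months, above 68.6 for Cpt1b and 54.5 for Cpt1a. These positions depend on the counted exons, and not for Hadha and Hadhb alone. By its median exon, Acadm was already above Cpt1a at PND2, at 132 against 98.7 RPKM.

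Across the rest of the pathway, 99 genes in 10 lists were examined and 98 were tested. At 4 months 15 were higher and 29 lower, beside 14.7% and 21.1% of all genes, with a median log2 fold change of -0.17. Of these calls 9 higher and 19 lower ones held whichever library was left out. Of the genes named in the lists, those that did not hold were Etfdh, Abcd2, Ehhadh, Slc27a4, Acsl5, Plin5, Ppard, Pdk1, Pdp1, Pdhb and Dlst. The lists of fatty acid synthesis (0.86) and peroxisomal beta-oxidation (0.22) had positive medians, and the other 8 had negative ones.

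The lists are short, and the counts given for each here and below stand beside 21.1% lower and 14.7% higher among all genes tested. The list medians likewise stand beside -0.14 for all genes tested. Among 11 other enzymes of mitochondrial beta-oxidation, 3 were lower and 0 higher, with a median log2 fold change of -0.28. Acaa2, the thiolase, fell by 0.72 on the log2 scale, Eci2, an isomerase for unsaturated chains, by 0.66, and Etfdh, which passes the electrons to the respiratory chain, by 0.65. Of 6 other carnitine genes, Slc25a20, the carnitine-acylcarnitine exchanger between Cpt1 and Cpt2, was lower (-0.84). Slc22a5, the carnitine importer of the cell membrane, was higher (0.55). Of 12 tested peroxisomal genes, which shorten chains too long for the mitochondrion, 4 were higher and 0 lower, with a median of 0.22. The largest rises were in Abcd2 (1.70), Scp2 (0.78) and Ehhadh (0.69). Acaa1a also passed.

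Of 9 genes for uptake and activation of fatty acids, the transporter Slc27a1 (0.91) and the ligase Acsl5 (0.35) were higher, and the ligase Acsl3 (-1.81) and Slc27a4 (-0.38) were lower. Of 8 other targets of the PPARs, 5 were lower and 1 higher, with a median of -0.97. The thioesterases Acot1 (-2.39) and Acot2 (-1.60) and the lipase inhibitor Angptl4 (-1.63) fell most. Acot1 and Acot2 are close paralogs, and their reads may be shared. Plin5, a lipid droplet protein of oxidative tissues, was higher (1.66). Acot1 was 53.8, 61.6 and 64.5 RPKM at PND2 and 11.2, 11.5 and 11.4 at 4 months, so the adult libraries lay close together.

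Of 10 transcriptional regulators, Ppard and Lpin1 (1.48) were higher, and Ppargc1b and Tfam (-0.58), which maintains mitochondrial DNA, were lower. In the pyruvate dehydrogenase system, the phosphatases Pdp2 (1.69) and Pdp1 (0.55), which reverse what the kinases do, were higher, and the subunit Pdhb (-0.57) was lower along with Pdk1 and Pdk3. Of 7 genes of fatty acid synthesis, Scd1 (4.63) and Srebf1 (0.86) were higher and Scd2 (-0.73) lower. Scd1 was 66.9, 715 and 123 RPKM in the 4-month libraries, highest in the library with the highest adipocyte markers. Of 16 citric acid cycle genes, 6 were lower, among them Sdhd (-0.88) and Dlst (-0.53), and Suclg2 was higher (0.61). Of 9 genes for mitochondrial pores and import, 6 were lower and 0 higher, led by Timm23, Vdac2 and Tomm40 (-0.69).

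**Figure D5:**
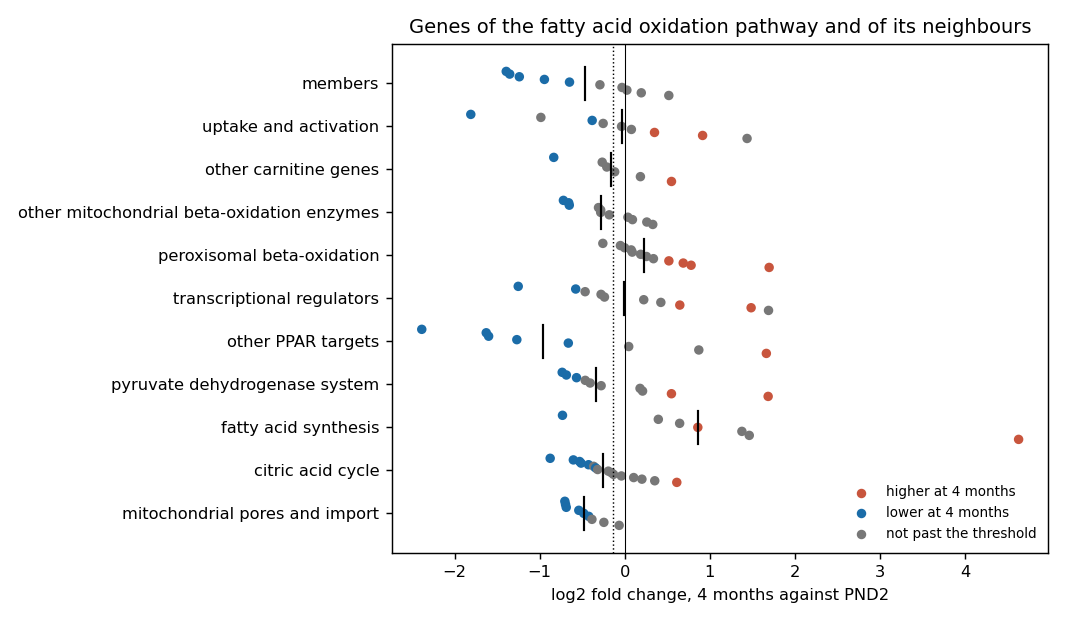
Log2 fold change of 4 months against PND2 for each tested gene of the 10 oxidation genes (members, top) and of 10 related lists, with list medians as black bars and the median of all genes as a dotted line. Red and blue mark genes that passed as higher and lower, and of the related genes 15 are red and 29 blue.

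The genes whose values across the 6 libraries were most like those of Ppargc1a, which fell most, were sought among 20027 genes with a mean of at least 1 RPKM. The measure was the distance between log2 values after centring each gene. The nearest were Rbm24 (distance 0.165), a splicing regulator of muscle, Actn2 (0.213), a protein of the sarcomere Z-disc, and Sorbs2 (0.220), which is also abundant in heart muscle. Rbm24 was 72.5 RPKM at PND2 and 29.1 at 4 months on average, and Actn2 was 572 and 218. For Pdk4, which had the largest positive log2 fold change, the nearest were Gm23681 (0.195), annotated as a miRNA gene, Dnajc28 (0.216) and Pde3b (0.248), a phosphodiesterase of fat and heart. Gm23681 was low, at 1.45 RPKM at PND2 and 2.12 at 4 months on average.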

How the data were processed

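The labels put 3 libraries in each age by source name. Per the study's methods and processing notes, the authors trimmed reads, used TopHat2 2.1.0 for alignment to mm10 and counted reads over Ensembl genes and exons in R 3.2.2. The deposited values are RPKM, 46983 genes and 448141 exons, divided by exonic length and library total. Whole reads were recovered for 100% of gene values (tolerance 0.01), and 3 reads were taken as the detection limit, which covers counting error only.

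Genes with an RPKM of at least 0.1, and exons of at least 1, in 3 libraries were tested with limma 3.58.1 (R 4.3.3) on log2(RPKM + 0.1) with a trend. Fold changes on this scale understate changes of low genes. Shares were compared by exact permutation. Steps were tested on simulated data. The 10 genes and all lists were chosen with earlier results of these data known. Outside the 10 genes, the Pdk, Ppar and Ppargc1 families, up to 3 passing genes per list and direction by size, and the 3 nearest profiles of Ppargc1a and Pdk4 were named, except that a gene this rule would name is not reported here. Acaa1a, Cpt1c and marker genes were named after their values were seen. Alternatives were pseudocounts of 1 and 0.01, other filters, no trend, a floor of 10 reads, median scaling, quantile normalization, a replicate block, an unequal-variance test and leaving out each library. Voom on recovered reads was added after seeing the data. Tables and figures used Python 3.11.15 with pandas 2.3.3, numpy 2.4.6, scipy 1.17.1 and matplotlib 3.10.9.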

Additional observations from a re-analysis of the deposited data

How the results depend on the processing

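The number of oxidation genes lower at 4 months was 5, and it was 3 with no filter on low values and 1 (Cpt1a) with the per-gene unequal-variance test. Leaving out a library gave 4 to 5 lower and 0 to 2 higher. Of the related genes 29 were lower, against 19 after median scaling, 18 with no filter and 8 with the unequal-variance test, and 19 to 32 when a library was left out, lowest without PND2 replicate 3. The 15 higher related genes became 5 with the unequal-variance test. Exons of the oxidation genes that passed as higher numbered 0 to 2 when a library was left out. The log2 fold change of Cpt2 was 0.089 after median scaling, 0.034 after quantile normalization, 0.18 without 4 months replicate 1 and 0.05 without PND2 replicate 3. That of Hadhb ran from -0.19 (without 4 months replicate 2) to 0.34 (without 4 months replicate 1), and was also negative without 4 months replicate 3 (-0.08) and without PND2 replicate 2 (-0.06). With no filter 46983 genes were tested in place of 25903. The causes of these differences were not tested. Over all genes 9273 passed, against 3408 with the unequal-variance test. Median scaling moved the centre of all log2 fold changes from -0.14 to -0.02 and the split of higher and lower calls from 3810 and 5463 to 4601 and 4129. Voom on recovered reads gave 5 lower and 0 higher oxidation genes. With 3 pools per age, the log2 fold change of Pdk4 (0.52, standard error 0.23) passed in 1 of 17 alternatives. Whether the spread between pools accounts for it was not tested.

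Replicate numbers are shared by both ages, but same-numbered libraries did not deviate together (correlations 0.0439, -0.0608 and -0.160). No library correlated best with its own number. With a replicate block 7167 genes passed, 5 oxidation genes were lower and 0 higher, and 13 and 23 related genes were higher and lower.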
